A study of Homo sapiens with 32 samples.

Results

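NPIPB3, NPIPB4, NPIPB5, NPIPB6, NPIPB7, NPIPB8, NPIPB9, NPIPB11, NPIPB12 and NPIPB13 are 10 gene copies of the nuclear pore complex interacting protein family, B branch, and were followed here in human granulosa cells exposed to perfluorooctane sulfonate (PFOS), a persistent fluorinated surfactant. They were taken by symbol and make up 10 of the 18583 gene entries with values. The copies were selected on measured values, because NPIPB7 and NPIPB8 differed between 0.1 µM PFOS and control after 12 weeks and the other copies share their sequence. Values of that comparison, and of the other 12-week comparisons with the same 4 control libraries, are therefore given as a description. How many copies passed a threshold there is counted for the record and supports nothing. The study used HGrC1, an immortalised line from non-luteinized human granulosa cells, and compared cells given PFOS at 3 concentrations (1 µM, 0.1 µM and 0.01 µM) with cells given the vehicle alone, DMSO at 0.05%, at 2 times, 6 and 12 weeks. All 8 groups hold 4 libraries, one per separately frozen vial, and the flask grown from each vial was divided among the 4 treatments. All groups shared medium with serum and 100 nM of a hormone, which the sample labels call estradiol and the methods of the study call testosterone.

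The NPIP genes sit in blocks of chromosome 16 that were duplicated repeatedly during primate evolution, and different people carry different numbers of copies. Their name comes from similarity to a protein that binds the nuclear pore, but what the B copies do in granulosa cells is not established. Since the copies are so alike, a short read can fit several of them, and a counting program that spreads such reads by an estimate can raise one copy at the cost of another. The family sum, which such spreading among members does not alter, is therefore given beside the single copies.

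The copies fall into 2 types by coding sequence, a grouping made after the sequences and values had been seen. NPIPB3, NPIPB4, NPIPB5, NPIPB11, NPIPB12 and NPIPB13 form the NPIPB5 type, whose 15 pairs were 96.9 to 99.9% identical over the aligned coding bases. NPIPB6, NPIPB7, NPIPB8 and NPIPB9 form the NPIPB6 type, whose 6 pairs were 91.5 to 99.7% identical. Between the types, identity was 79.0 to 88.2%, so that not all 10 copies are near-identical. The values of 79.0 to 79.7% are the pairs with NPIPB3, whose annotated transcript has 2 coding exons and aligned over 523 to 537 bases. The lowest of the other pairs, NPIPB4 with NPIPB7, had 82.2% over 1190 bases. NPIPB3, NPIPB4 and NPIPB5 lie in band 16p12.2, NPIPB6 and NPIPB7 in 16p12.1, and NPIPB8, NPIPB9, NPIPB11, NPIPB12 and NPIPB13 in 16p11.2.

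A window of 80 coding bases, from the GRCh38 reference, shows bases by which copies can be told apart. It was picked among 204 candidate windows for the most distinct sequences and then the most variable positions, so no other candidate holds more distinct sequences. It is still more alike between the types than their whole coding sequences are, so it does not stand for the copies' overall identity. Across the 10 copies it holds 6 distinct sequences, which differ at 7 positions, and capitals mark bases that differ from the sequence that NPIPB3, NPIPB4 and NPIPB5 share. NPIPB8 and NPIPB9 have the same bases here, and so do NPIPB12 and NPIPB13.
NPIPB5 (chr16:22533754-22533833, plus strand): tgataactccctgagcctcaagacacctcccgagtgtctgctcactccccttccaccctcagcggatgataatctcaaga
NPIPB11 (chr16:29384082-29384161, minus strand): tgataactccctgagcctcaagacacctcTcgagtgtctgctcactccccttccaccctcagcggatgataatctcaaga
NPIPB12 (chr16:29485626-29485705, minus strand): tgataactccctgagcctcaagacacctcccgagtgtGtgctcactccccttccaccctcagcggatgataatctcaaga
NPIPB6 (chr16:28342981-28343060, minus strand): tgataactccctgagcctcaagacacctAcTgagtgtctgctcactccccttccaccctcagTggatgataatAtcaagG
NPIPB7 (chr16:28456819-28456898, minus strand): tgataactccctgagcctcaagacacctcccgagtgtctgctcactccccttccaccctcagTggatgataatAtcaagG
NPIPB8 (chr16:28658156-28658235, plus strand): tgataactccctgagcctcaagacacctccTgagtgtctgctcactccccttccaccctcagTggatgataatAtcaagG
Between 47.0% (NPIPB11) and 99.0% (NPIPB12) of the 100-base windows of a copy's annotated transcript also occur in another copy. Windows found in no other gene's annotated transcripts made up 0.0% in NPIPB7, 1.0% in NPIPB12 and up to 52.6% (NPIPB11). These windows come from each copy's annotated transcript with the longest coding sequence, which has 1265 bases in NPIPB7 and 3653 in NPIPB11. The deposited values imply longer counted lengths, with medians of 2967 and 5068 bases. Counted bases outside these transcripts were not compared, so the shares need not hold for the deposited counts. In NPIPB7, 74.3% of the windows occur in another copy and the rest in transcripts of genes outside the 10. The family sum does not cover reads divided with such genes. The deposited counts carry the mark of shared reads: 317 of the 320 values of the copies were not whole numbers. Among the 12613 genes with a mean of at least 10 counts, 21.0% had such a value in any library and 5.78% had one in 30 or more of the 32.

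Total counts per library lay between 17907057 and 18553350. Of 15 granulosa markers 14 had values and 11 had a mean of at least 10 counts, a low floor at this depth. The transcription factor gene GATA4 had 2040 to 2816 counts and KRT8 had 53413 to 76987. FOXL2 (10 to 37), INHA (8 to 31) and CYP11A1 (2 to 50) were low. The aromatase gene CYP19A1 (0 to 1), NR5A1 (0 to 14) and the receptor gene AMHR2 (0 to 3) were near 0, and FSHR had no values. Fibroblast markers summed to 29337 to 48498 counts per library, so these markers alone do not establish the cell type. At 12 weeks, replicates 3 and 4 of the control and of 0.01 µM PFOS stood apart on the second principal component of all genes outside the family (8.69 to 12.6, against −6.64 to 3.34 in the other 28 libraries). Replicate 3 of the 12-week control also held 919 counts over 6 liver transcripts, against 72 to 174 in the other 12-week libraries. Their sum was 0 to 1 in the 6-week control and 0.01 µM libraries and 88 to 141 at 0.1 and 1 µM. The main values that use these libraries are also given without them.

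The copies differed widely in level. Per transcript length (TPM), NPIPB5 was the most abundant, with 16.4 to 31.7 and a median of 26.5 TPM over the 32 libraries. NPIPB4 followed with a median of 21.9, NPIPB3 with 16.3 and NPIPB12 with 10.8 TPM, and in each step of this order the first copy was higher in 32 of 32 libraries. The same annotation and counting program served every library, so agreement over libraries does not test the order of copies that share reads. NPIPB6 (median 7.11) and NPIPB9 (7.10) could not be ordered, since NPIPB6 was the higher in 11 of 32 libraries. NPIPB13 (4.98) and NPIPB11 (2.12) came next, and NPIPB8 (0.845) and NPIPB7 (0.59) were lowest, with NPIPB8 the higher of this pair in 28 of 32. On the count scale NPIPB7 had 4.56 to 38.1 and NPIPB8 had 7.52 to 31.5 counts per library, so that the copies through which the family came to attention are the ones with the fewest reads.

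**Figure D1:**
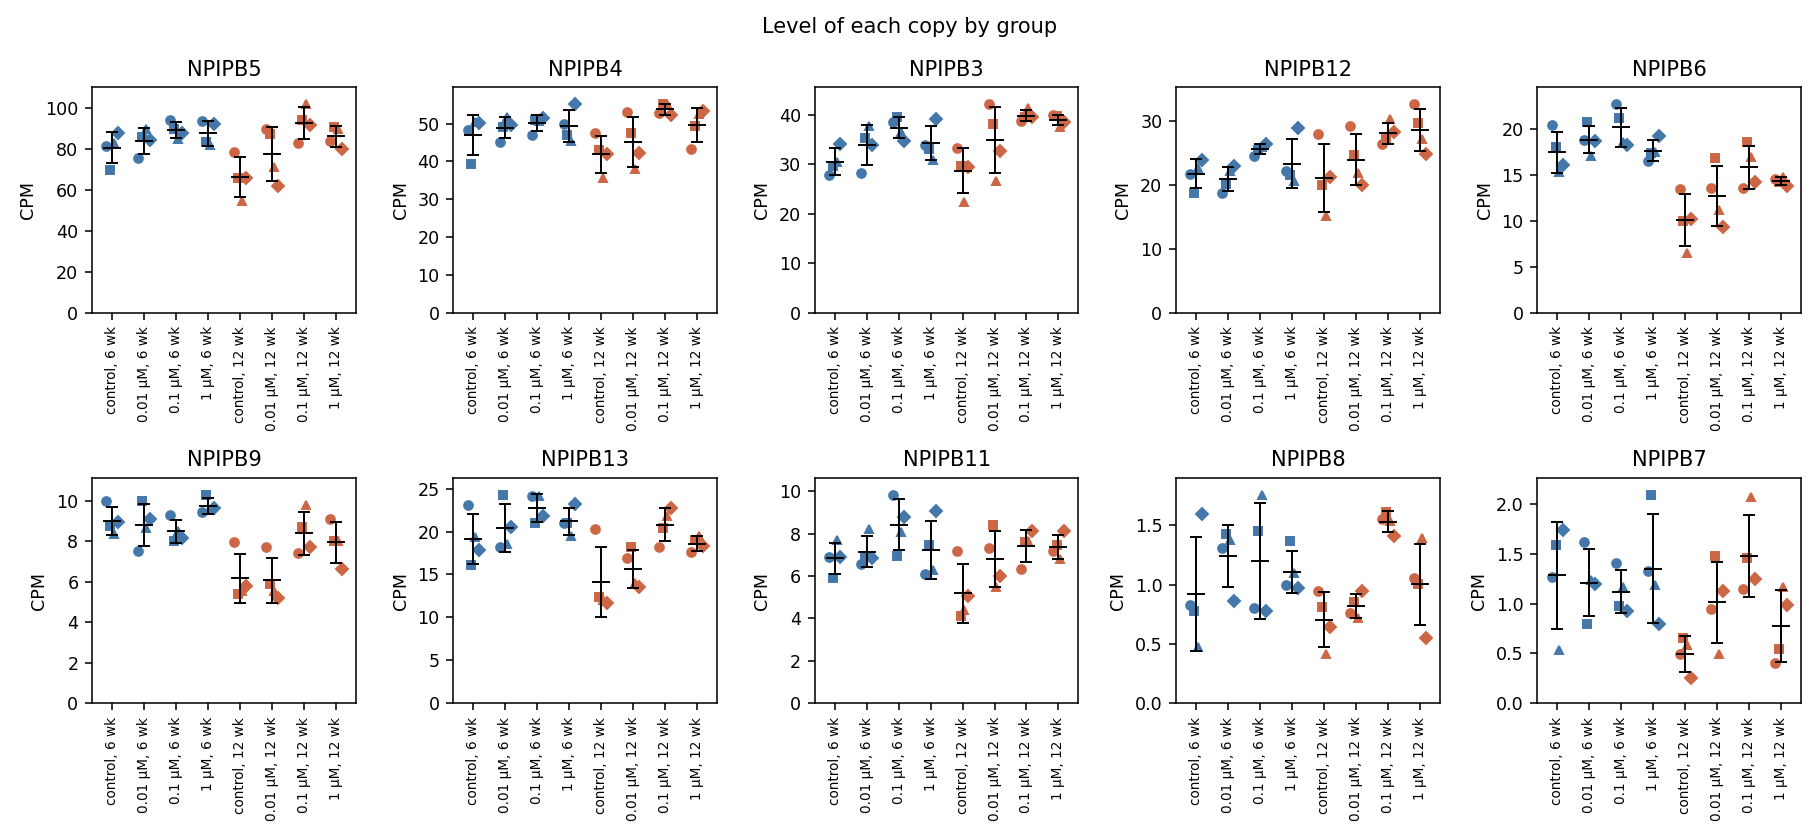
Level of each copy in CPM (counts scaled to library size, y axis from 0) by group (x axis). Points are libraries (circle, square, triangle and diamond for replicates 1 to 4), lines and bars are the mean and SD of 4 libraries, blue is 6 weeks and orange is 12 weeks. NPIPB5 has the highest values and NPIPB7 and NPIPB8 the lowest, and most copies are low in replicate 3 of the 12-week control.

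Summed over the family, the level at 6 weeks was at most slightly above the control in the PFOS groups. On the CPM scale, which divides counts by edgeR's library sizes, the control libraries had 242, 209, 239 and 249, in the order of replicates 1 to 4. The 0.1 µM libraries had 273, 266, 261 and 259 CPM and lay above every control library. At 0.01 µM the sum was 222 to 257 CPM and at 1 µM 234 to 278 CPM, and both overlapped the control. The log2 ratio to control was 0.06 ± 0.07 (SE, n = 4 against 4) at 0.01 µM, 0.17 ± 0.06 at 0.1 µM and 0.11 ± 0.08 at 1 µM. Leaving out vial 2 turned the ratio at 0.01 µM to −0.01.

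At 12 weeks the control was the low group. Its libraries had 238, 192, 158 and 192 CPM, with a mean of 195 ± 32.8 (SD, n = 4). The 0.1 µM libraries had 249, 274, 289 and 268 CPM (mean 270.0 ± 16.4), and those at 1 µM had 250, 260, 259 and 245 CPM (mean 253 ± 6.98). All libraries of both groups lay above all 4 controls. At 0.01 µM the values were 262, 250, 195 and 193 CPM, so that replicates 3 and 4 lay among the controls and replicates 1 and 2 above them. The log2 ratio to control was 0.21 ± 0.17 (SE) at 0.01 µM, 0.47 ± 0.13 at 0.1 µM and 0.38 ± 0.12 at 1 µM. Without replicates 3 and 4 of the control and 0.01 µM groups, a choice made after the data were seen, the ratios were 0.25, 0.33 and 0.24, and the values at 0.1 and 1 µM remained above both controls. Replicate 3 of the control, with the most liver transcripts, had the lowest sum of all 32 libraries, and the part of those transcripts in the result was not tested. In bulk RNA, fewer cells with these transcripts and less RNA per cell cannot be told apart.

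**Figure D2:**
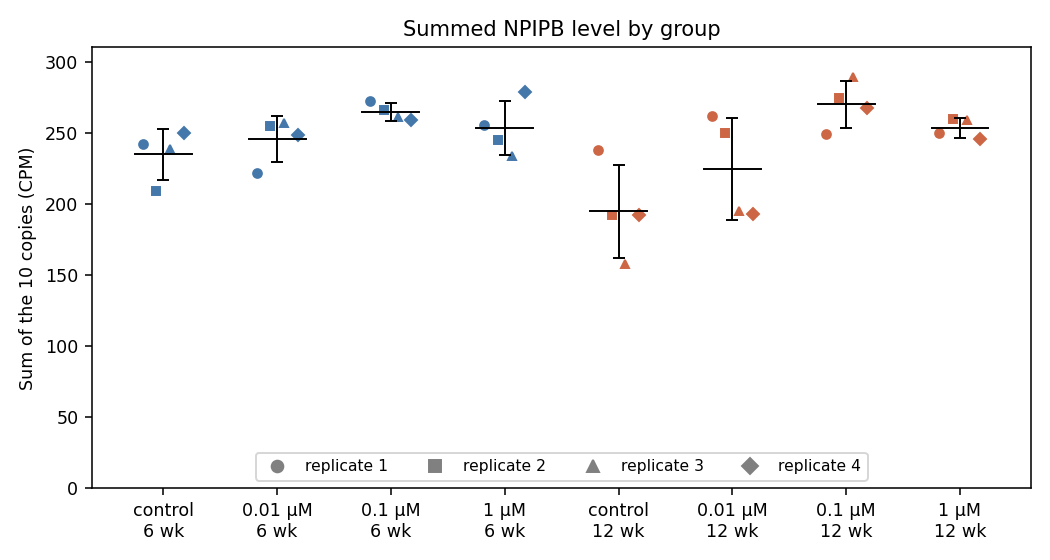
Sum of the 10 copies in CPM (y axis from 0) by group. Points are libraries, with one shape per replicate, lines and bars are the mean and SD of 4 libraries, and 3 of the 4 control libraries at 12 weeks lie at 158 to 192 CPM while all libraries at 0.1 and 1 µM lie at or above 245 CPM.

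A read assigned to one copy is missing from another, which by itself would make the sum steadier than its parts. Variation that the copies share has the opposite effect on the sum. Both can be present, so the ratio below gives only their balance, and the part of divided reads was not tested. Within groups the variance of the sum was 457 CPM squared, against 118 for the variances of the 10 copies added up, a ratio of 3.87. By group the ratio was 5.54 in the 12-week control and 4.30 at 0.01 µM after 12 weeks, the groups of the libraries that stood apart. It was 1.10 at 0.1 µM after 6 weeks and 0.799 at 1 µM after 12 weeks, the one group in which it was under 1. Within groups, 3 of the 45 pairs of copies had a negative correlation over the 32 libraries, all with NPIPB7 or NPIPB8, and the median was 0.51. These correlations share libraries, depth and divided reads, and are descriptions. The variance over the mean of the counts was above the median of all tested genes (2.24) in 8 of 10 copies, reaching 13.8 in NPIPB5. NPIPB8 (1.58) and NPIPB9 (2.00) were below it.

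Copy by copy, the comparison that led to the choice had all 10 copies higher at 0.1 µM than in the control after 12 weeks. Of all tested genes 48.1% were higher there, and copies that share reads and vary together are not separate observations. In NPIPB7 the control libraries had 8.91, 12.0, 10.6 and 4.56 counts and the 0.1 µM libraries 20.9, 26.2, 38.1 and 22.5. In NPIPB8 the counts were 17.1, 14.7, 7.52 and 11.8 in the control and 28.3, 29.1, 28.2 and 25.4 at 0.1 µM. Neither copy's groups overlapped. Their log2 fold changes were 1.53 ± 0.36 (SE) and 1.07 ± 0.25, the values by which they were chosen. In that comparison 1.07% of tested genes passed an adjusted p of 0.05 in edgeR, and among the copies these 2 did, which the choice fixes. Without replicates 3 and 4 of the control and 0.01 µM groups the log2 fold changes were 1.34 and 0.77. The 6 copies of the NPIPB5 type had log2 fold changes of 0.36 to 0.56. NPIPB5 itself had 1416, 1196, 1004 and 1208 counts in the control against 1509, 1695, 1876 and 1664.

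At 1 µM after 12 weeks all 10 copies were again above the control, with log2 fold changes of 0.24 (NPIPB4) to 0.58 (NPIPB7) and a median of 0.44, which was 0.26 without the 4 libraries that stood apart. Of all tested genes 48.3% were above the control. In edgeR 0 of 10 copies passed, against 0.22% of tested genes, and 8 had an unadjusted p under 0.05, against 8.75%. DESeq2 called 1 on the same libraries (88 of 16896 tested genes passed) and 2 on the compared groups alone (163 of 16377). At 0.01 µM, 9 copies were above the control, against 51.1% of tested genes, with a median of 0.20, or 0.23 without those libraries. There 0 passed in edgeR (0% of tested genes), 3 had an unadjusted p under 0.05 (8.48% of tested genes) and DESeq2 called 0. The comparisons at the 3 concentrations share the 4 controls by which the copies were chosen, so none of these counts is a test of the copies.

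**Figure D3:**
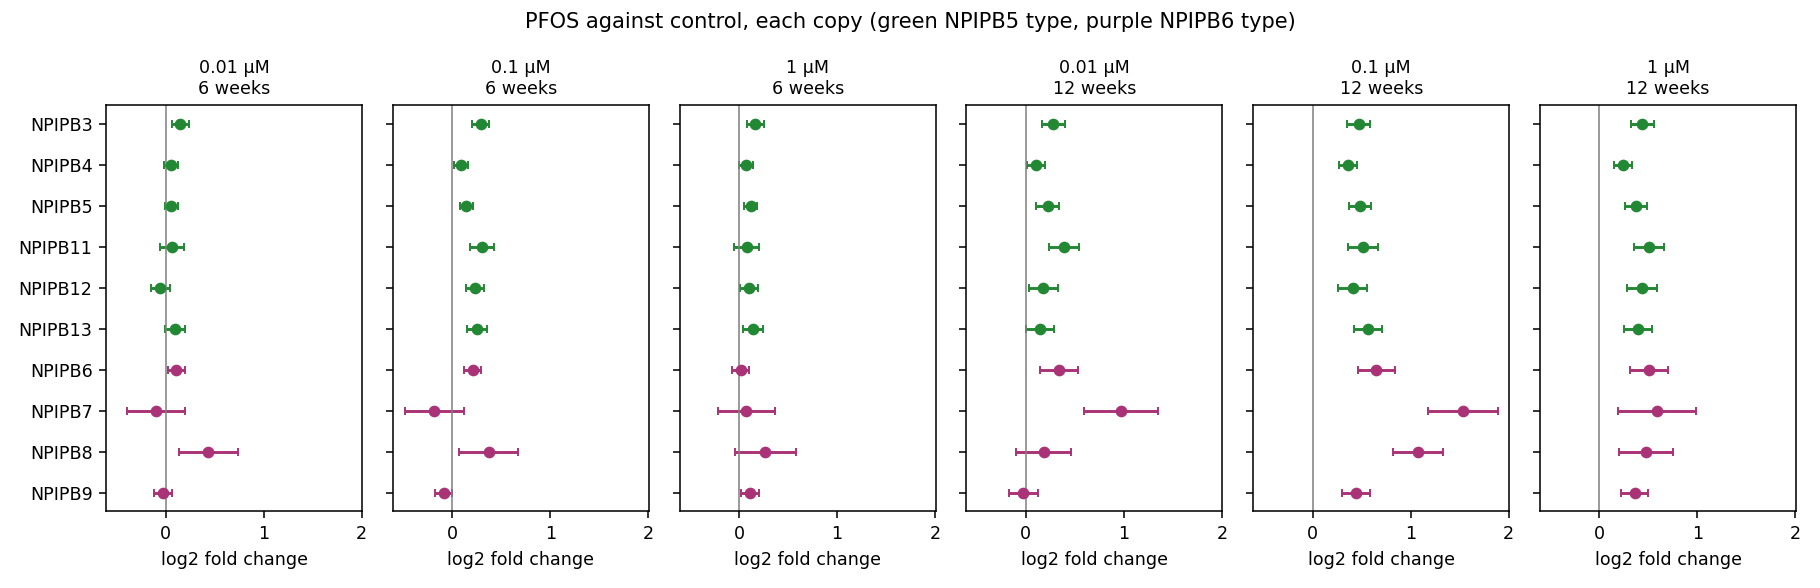
Log2 fold change against control (x axis) of each copy (y axis) at each concentration and time, with bars for the standard error of edgeR's fit and colour for the sequence type. At 12 weeks all 10 copies lie right of 0 at 0.1 and 1 µM, and NPIPB7 and NPIPB8 have the widest bars.

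The 6-week libraries were not used to choose the copies. In edgeR's quasi-likelihood test with Benjamini-Hochberg adjustment over all tested genes, 0 of the 10 copies passed at any concentration, while 0% of tested genes did at 0.01 µM, 4.24% at 0.1 µM and 0.28% at 1 µM. At 0.1 µM, 8 copies were higher than in the control, against 50.1% of tested genes, with a median log2 fold change of 0.22. An unadjusted p under 0.05 was found in 6 copies and in 20.8% of tested genes. The nearest to the threshold was NPIPB3, with 509, 546, 553 and 620 counts in the control and 706, 717, 655 and 623 at 0.1 µM. All its 0.1 µM libraries lay above all controls, with a log2 fold change of 0.29 ± 0.09 (SE) and an adjusted p of 0.0626 in edgeR, which ranged from 0.0047 to 0.239 over the alternatives. DESeq2 called NPIPB3 alone, where 619 of 17020 tested genes passed on the same libraries. The fit with the vial as replicate block called 1 copy, NPIPB12 (log2 fold change 0.23, adjusted p = 0.0404), where 739 of 12836 tested genes passed. NPIPB7 and NPIPB8 at 0.1 µM had log2 fold changes of −0.18 ± 0.30 and 0.37 ± 0.31 in edgeR at 6 weeks, neither of which passed. At 0.01 and 1 µM, 0 copies had an unadjusted p under 0.05, where 9.6% and 13.7% of tested genes did, DESeq2 called 0 copies, and the median log2 fold changes were 0.06 and 0.11. The liver transcripts, near 0 in the 6-week control and raised at 0.1 µM, moved with this comparison, and their part in it was not tested.

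Comparisons without the controls gave few calls. Between 1 and 0.01 µM at 12 weeks, 9 of 10 copies were higher at 1 µM, against 50.4% of tested genes, with a median of 0.16. In edgeR 0 passed, against 1.88% of tested genes, 1 had an unadjusted p under 0.05, against 19.9% of tested genes, and DESeq2 called 0. Without replicates 3 and 4 of the 0.01 µM group, 4 of 10 were higher and the median was −0.03. Whether the difference between 1 and 0.01 µM itself differed between 12 and 6 weeks was tested as an interaction, in which 0 of 10 copies passed (0.454% of tested genes), 0 had an unadjusted p under 0.05 (17.2% of tested genes) and DESeq2 called 0.

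Between the times, the copies called changed with the libraries in the fit. Weeks in culture and the processing at each time differ together in these comparisons and cannot be told apart. At 0.01 µM, 3 copies were lower after 12 than after 6 weeks in edgeR, in a comparison where 42.7% of tested genes passed. NPIPB9 had 137, 183, 157 and 169 counts at 6 weeks and 139, 107, 102 and 93.1 at 12 weeks, with a log2 fold change of −0.54 ± 0.12 and an adjusted p of 0.000476 in edgeR. NPIPB6 went from 342, 379, 309 and 346 counts to 246, 305, 205 and 166, which do not overlap, with −0.57 ± 0.15 and an adjusted p of 0.0031 in edgeR. NPIPB13 of the NPIPB5 type fell by 0.38 ± 0.13 on the log2 scale, with an adjusted p of 0.0214 in edgeR. That call did not hold without vial 2, 3 or 4. NPIPB6 lost its call without vial 4. Without replicates 3 and 4 of the 12-week group, NPIPB9 had −0.38 with an adjusted p of 0.0381 in edgeR, while NPIPB6 (−0.31, adjusted p = 0.0582) and NPIPB13 (−0.22, adjusted p = 0.264) did not pass. In that fit NPIPB3 (0.25, adjusted p = 0.0283) and NPIPB12 (0.36, adjusted p = 0.0394) were higher at 12 weeks. At 1 µM, where 30.1% of tested genes passed, 0 copies passed in edgeR, 3 had an unadjusted p under 0.05, against 40.3% of tested genes, and DESeq2 called 0 on the same libraries and 2 on the compared groups alone. The fit with the vial as replicate block called 1 copy there, NPIPB9 (log2 fold change −0.30, adjusted p = 0.0400), where 3966 of 12988 tested genes passed. The fit without the 4 libraries that stood apart, none of which are of this comparison but which enter the shared estimate of spread, called 4 copies in edgeR, NPIPB6 and NPIPB9 lower and NPIPB3 and NPIPB12 higher at 12 weeks.

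As a share of the family sum, the NPIPB6 type took 10.4 to 13.9% in the 16 libraries at 6 weeks and 8.31 to 11.05% in the 16 at 12 weeks. By group the mean went from 12.3 ± 1.69 (SD, n = 4) to 8.88 ± 0.552% in the control and from 12.3 ± 0.975 to 9.15 ± 0.654% at 0.01 µM. It went from 11.7 ± 0.715 to 10.1 ± 0.864% at 0.1 µM and from 11.8 ± 0.924 to 9.49 ± 0.533% at 1 µM. The 6- and 12-week libraries overlapped at 0.1 µM and did not overlap in the other 3 groups. Without replicates 3 and 4 the 12-week means were 9.22% in the control and 9.43% at 0.01 µM (n = 2 each). The types were defined after the values were seen, and no test is given. Here too, weeks in culture and processing at each time cannot be told apart.

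**Figure D4:**
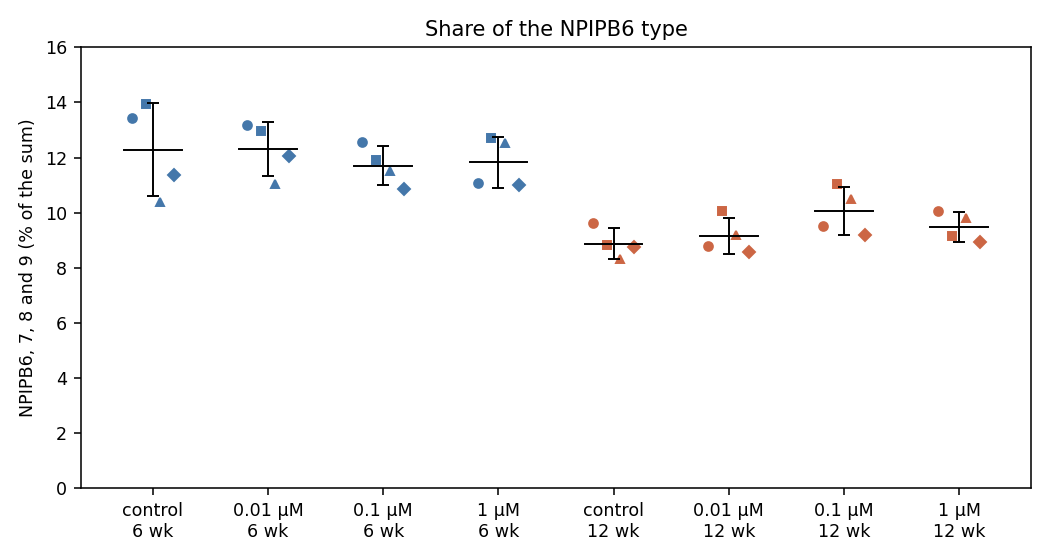
Share of the family sum held by NPIPB6, NPIPB7, NPIPB8 and NPIPB9 in percent (y axis from 0) by group. Points are libraries, lines and bars are the mean and SD of 4 libraries, and the means are 11.7 to 12.3% at 6 weeks and 8.88 to 10.1% at 12 weeks.

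Other members of the family were low in the same libraries. NPIPB2 and NPIPB15, which are B copies outside the 10, summed to 11.4 ± 2.65 CPM (SD, n = 4) in the 12-week control against 17.9 ± 0.784 at 0.1 µM and 16.7 ± 1.61 at 1 µM, with no overlap. The 7 NPIPA copies with values, from the other branch of the family, summed to 109.9 ± 8.18 CPM in the 12-week control, 133 ± 4.54 at 0.1 µM and 130.0 ± 5.19 at 1 µM, again with no overlap. Without replicates 3 and 4 the 12-week control had 12.2 CPM for the former and 116 CPM for the latter (n = 2). Of the 9 other NPIP copies tested, 1 passed in edgeR at 0.1 µM after 12 weeks, where 1.07% of tested genes did. It was NPIPB2, with a log2 fold change of 0.73 ± 0.16. After 12 weeks the genes next to the copies on chromosome 16 had a median log2 fold change of 0.03, 0.01 and 0.01 at 0.01, 0.1 and 1 µM. Of 15 tested, 0 passed in edgeR at any concentration. Since only 0%, 1.07% and 0.22% of all tested genes passed there, this count says little about the neighbours. At 6 weeks and 0.1 µM, where 4.24% of tested genes passed, 2 of 14 did, SPN (0.16) and EIF3C (−0.13).

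The sum moved with a component of all genes. Over the 32 libraries its log2 value had a correlation of −0.766 with the second principal component, and of −0.44 in the 28 libraries without the 4 that stood apart. Among 11306 genes outside the family with a mean of at least 50 counts, the 5 most like the sum were LOC124904532 (r = 0.905), LOC107986800 (0.881), GABBR1 (0.877), LOC101060341 (0.868) and NKTR (0.865), all over 32 libraries. NKTR, which codes for a cyclophilin-related protein of natural killer cells, had 80.4 ± 10.5 CPM (SD, n = 4) in the 12-week control and 109 ± 9.30 at 0.1 µM. GABBR1, a subunit of the GABA-B receptor, had 19.0 ± 3.48 and 25.5 ± 1.54 CPM. Both genes were picked for following the sum over these same libraries. Their group means therefore follow from the choice and are no separate evidence. The part of this component in the differences between groups was not tested.

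**Figure D5:**
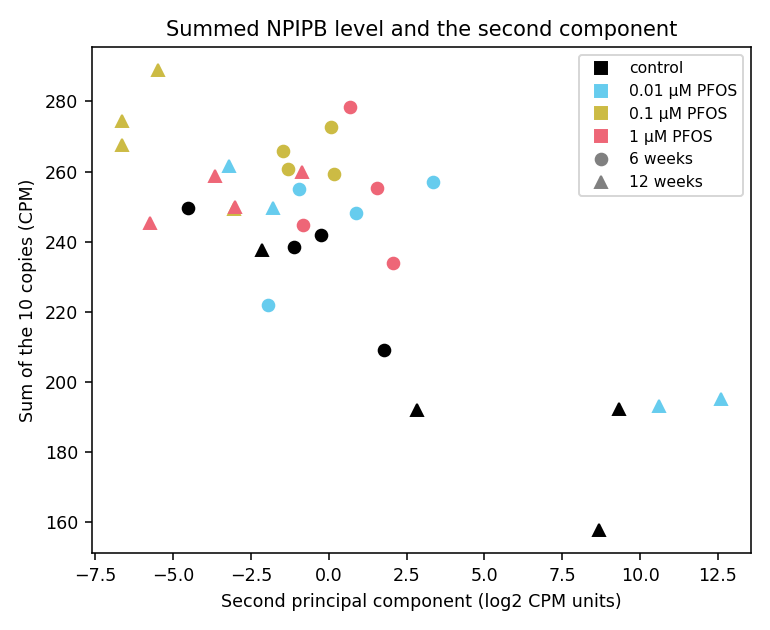
Sum of the 10 copies in CPM (y axis, not from 0) against the second principal component of log2(CPM + 1) over genes outside the family (x axis). Each point is a library, with colour for the concentration and shape for the time, and the 4 libraries right of 8 are replicates 3 and 4 of the 12-week control and 0.01 µM groups, with sums of 158 to 195 CPM.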

How the data were processed

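Strand-specific libraries of poly(A) RNA were read on DNBSEQ, and the authors deposited expected counts per gene from RSEM. Per the labels, the tools were HISAT2 2.0.4, Bowtie2 2.2.5 and RSEM 1.2.8 with the build GRCh38 p14. The authors also deposited a normalized signal, TPM and FPKM per gene. RSEM divides reads that fit several copies by an estimate, so values of single copies depend on it. Of 47137 entries, 18583 had values, and 0 columns were left unmapped.

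Expected counts were rounded and tested with edgeR 4.0.16 (quasi-likelihood, TMM, filterByExpr for low counts, two-sided, Benjamini-Hochberg over all tested genes, threshold 0.05) in R 4.3.3, with the 16 libraries of a time for PFOS against control and all libraries for times. DESeq2 1.42.0 was an alternative. The fit was tested on simulated data. Sums of copies have a standard error from the log2 values and no test. TPM was used for levels between copies, FPKM for implied lengths, and the normalized signal as an alternative. Coding sequences of GENCODE on GRCh38 were aligned with MAFFT 7.526, and coordinates are those of GRCh38. Promoters were not used here.

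The members and lists were chosen with earlier results of these data known. Named were the 10 copies, the other NPIP genes, genes of the chromosome 16 duplications, neighbours, and the 5 genes most like the sum. Of the 17 duplication genes tested, 0 passed in any 12-week comparison of PFOS with control. Of all tested genes 0%, 1.07% and 0.22% passed there at 0.01, 0.1 and 1 µM. At 0.1 µM after 6 weeks 3 of 16 were called lower, as were 345 of 12836 tested genes. Among 48 pairs of replicates 0 were identical. Per the methods of the study each vial was divided among the treatments, and the labels number the replicates. The replicate number was taken to mark the vial, which would pair the libraries. As a check, deviations from group means in libraries of one number had a mean correlation of 0.0548 to 0.124 over 6 pairs of groups at 6 weeks and −0.16 to 0.154 at 12 weeks. Vials were frozen separately from one line, so p-values measure the spread between cultures of it.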

Additional observations from a re-analysis of the deposited data

Results flagged for a closer look

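The 10 copies and their sum were checked for a library far from the other 3 of its group, in 88 groups of values, and chance alone flags about 1 in 20 such groups. In 2 of them a library was flagged, both times replicate 1 of the 12-week control as the highest. NPIPB9 had 7.99 CPM there, against 5.42 to 5.78 in the other 3 libraries. NPIPB13 had 20.2 CPM, against 11.7 to 12.4. Without vial 1, the log2 ratio of the family sum at 12 weeks was 0.62 at 0.1 µM and 0.50 at 1 µM.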

How the results depend on the processing

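The log2 ratio of the family sum moved by less than the spread of the controls under all 69 alternatives. They included total counts, the deposited normalized signal, TPM, the other NPIPB entries, each sequence type and the replicate block (0.48 at 0.1 µM and 0.39 at 1 µM after 12 weeks). That limit is wide beside the ratios: the 12-week control sums ran from 158 to 238 CPM, and the ratios there were 0.21, 0.47 and 0.38. A ratio can change much within it, so staying inside it says little on how stable a ratio is. The variance ratio of 3.87 lay between 3.22 and 4.10. Counts of copies that passed moved more. At 0.1 µM after 12 weeks the 2 became 0 with at least 10 counts in every library, which removes NPIPB7 and NPIPB8, 0 to 9 when a vial was left out, 7 and 6 with DESeq2 on the same libraries and on the compared groups, 9 in a fit of all 32 libraries and 1 without the 4 libraries that stood apart. Over all tested genes 136 of 12742 passed in the main fit. With DESeq2 280 of 16896 and 303 of 16412 did, and without vial 1, where 9 copies passed, 315 of 12741 did. For 1 µM after 12 weeks the 0 became 1 with the replicate block, 0 to 3 when a vial was left out, 1 and 2 with DESeq2 and 1 with all 32 libraries. All tested genes gave 28 of 12742 in the main fit, 45 with the replicate block and 61 of 12741 without vial 1. With DESeq2 they gave 88 of 16896 and 163 of 16377. At 0.1 µM after 6 weeks the 0 became 1 with the replicate block, 0 to 1 when a vial was left out, 1 with either DESeq2 fit and 2 with edgeR on the compared groups. Among all tested genes 544 of 12836 passed in the main fit, 739 with the replicate block and 77 of 12847 without vial 4. DESeq2 called 619 of 17020 and 564 of 16514, and edgeR on the compared groups 587 of 12672. Between 1 and 0.01 µM the 0 became 1 with all 32 libraries. Between times at 1 µM the 0 became 1 with RLE factors, 1 with at least 10 counts, 1 with the replicate block, 0 to 2 when a vial was left out, 4 with edgeR and 2 with DESeq2 on the compared groups, and 4 without the 4 libraries that stood apart. Of all tested genes 3903 of 12988 passed there in the main fit. The number was 3911 with RLE factors, 3615 of 12002 with at least 10 counts and 3966 with the replicate block. At 0.01 µM between times the count without the 4 libraries that stood apart was 3, of which NPIPB9 was the 1 shared. The replicate block moved no other count by over 1.5 times. The causes were not tested, beyond the genes a filter removes. The fit without 4 libraries, the split by sequence type and the components were chosen after the data were seen. NPIPB7 and NPIPB8 have too few counts for small differences to be detectable at this depth.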
